A study of Mus musculus with 9 samples.

Results

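The comparison described here is that of Prdm16-null with wild-type (WT) mouse cochlear ducts at embryonic day 14.5, read across all genes and sorted by the kind of product each gene makes. It uses 6 of the 9 libraries of the series, 3 WT and 3 null, chosen by their genotype labels. Each library holds RNA from the microdissected cochlear ducts of both inner ears of a single embryo. All embryos came from intercrosses of mice carrying the Prdm16 cGT allele on the FVB/NJ background, an allele in which a gene trap interrupts Prdm16 in every cell of the embryo, so that surrounding tissues and the rest of the head lacked the normal gene as well. The null embryos carried the trap on both copies and the WT embryos on neither, and the heterozygous littermates were not used in the main comparison. Poly(A)-selected RNA was sequenced, and the values deposited for each embryo are whole-number read counts for 54232 genes.

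The cochlear duct is the coiled epithelial tube that will form the hearing organ. Its floor divides into a prosensory domain, the source of hair cells and supporting cells, a neighboring thickened epithelium called Kölliker's organ, and an outer sulcus, while its roof will form Reissner's membrane and the stria vascularis. These regions instruct each other through secreted factors and their receptors, adhere to each other through cadherins and immunoglobulin-type proteins, set the fluid around them with channels and transporters, and are told apart by transcription factors. PRDM16 is a zinc finger transcriptional regulator made in Kölliker's organ. Genes were therefore grouped by the product they encode, in the order signal, receiver, channel and transporter, enzyme, transcription factor, adhesion protein and noncoding RNA.

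Total counts per embryo ran from 24095322 to 30819118, and 3 reads corresponded to between 0.0966 and 0.125 CPM, the unit of level used throughout, in which counts are scaled to a common library size. Of the 54232 genes, 17168 had enough reads to be tested. Prdm16 read 223.4, 198.5 and 184.2 CPM in the 3 WT embryos and 23.6, 19.02 and 27.3 CPM in the 3 nulls, which left 11.5% of the WT mean. Its log2 fold change, null over WT, was -3.12 ± 0.15 (standard error, SE), with an edgeR adjusted p of 0.000148, and the residual level separated each null from each WT embryo as labelled. By Y-linked genes and Xist, WT embryo 1 and null embryos 1 and 2 were male and the other 3 female.

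Tissue other than the duct epithelium differed between embryos of the same genotype. The summed level of 7 mesenchyme genes was 413.1, 838.4 and 96.2 CPM in the WT embryos and 54.3, 28.8 and 1277 CPM in the nulls. Null embryo 3 also stood apart in cartilage RNA: Acan, which encodes the aggrecan core protein of cartilage, read 499.7 CPM there, while the other 5 embryos lay between 1.02 and 4.402 CPM. Endothelial genes summed to 3.29 to 72.5 CPM in WT and to 2.41 to 42.7 CPM in null, and macrophage genes stayed at 11.97 CPM or below. The 5 melanocyte genes summed to 55.2 to 132.2 CPM in WT and to 12.1 to 42.8 CPM in null, so that the groups did not overlap; edgeR called 0 of the 5 and DESeq2 2, and all 5 had an unadjusted p under 0.05. Within the epithelium, 5 of 5 Kölliker's organ markers (a list chosen partly for the study's own cell clusters) fell. Their sum was 3084 to 3823 CPM in WT and 1577 to 1860 CPM in null. The study's cluster list is longer, and its other genes were called in both directions. Examples are 1500015O10Rik and Spock1, which were lower, and Nrxn3 and Tectb, which were higher. Outer sulcus markers summed to 1046 to 1222 CPM in WT and 1277 to 1770 CPM in null (0 of 4 called by edgeR, 1 by DESeq2 and 2 at an unadjusted p under 0.05). Among the study's outer sulcus genes outside this list, Sgk1 was called higher and Tac1 lower. Roof markers summed to 7985 to 9360 CPM in WT and 10740 to 14070 CPM in null (0 of 5 called by edgeR and 1 by DESeq2). Most of the roof sum was Oc90, an otoconial protein, at 7253 to 8466 CPM in WT and 9998 to 13320 CPM in null. All 5 roof genes had an unadjusted p under 0.05, but not in 1 direction, since Otx1, Oc90, Otx2 and Fgf9 were higher in null while Lrp2 was lower, at 461.5 to 574.3 CPM in WT and 320.5 to 464.3 CPM in null, with values that overlapped. Prosensory domain markers summed to 676.1 to 744 CPM in WT and 749.3 to 991.5 CPM in null, and Fgf20 was the only 1 of the 6 called by edgeR or DESeq2, with 4 at an unadjusted p under 0.05. In such bulk samples fewer cells of a type and less RNA per cell cannot be told apart. The part of these tissue differences in the results was not tested gene by gene, but a fit with the mesenchyme sum as a covariate was made, and its counts stand beside the results of each class.

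**Figure D1:**
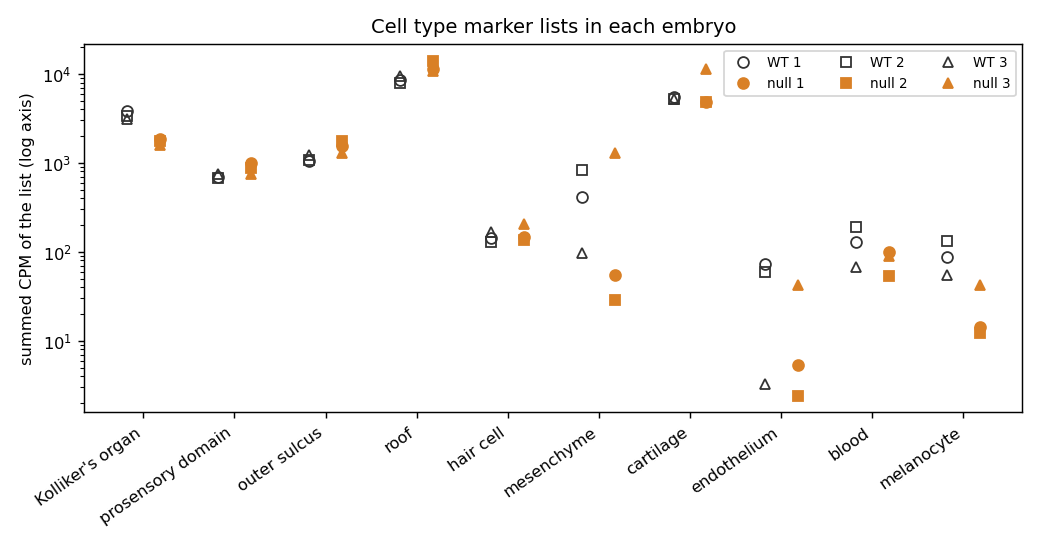
Summed CPM (log axis) of 10 cell type marker lists in each of the 3 WT embryos (open black symbols) and 3 null embryos (filled orange symbols), with the same symbol shape for the same embryo throughout. Kölliker's organ genes sit at 3084 to 3823 CPM in WT and 1577 to 1860 CPM in null, while mesenchyme genes spread from 28.8 to 1277 CPM and null embryo 3 is the highest for mesenchyme and cartilage.

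A gene was called when its Benjamini-Hochberg adjusted p in edgeR's quasi-likelihood test was under 0.05 over all 17168 genes and its log2 fold change was beyond 0.5 in either direction. By this rule 158 genes (0.92% of those tested) were higher and 135 (0.786%) lower in null, or 1.71% in all, and the median log2 fold change of all tested genes was 0.01. With these shares as the background, the secreted class had 32 of 461 tested genes called (6.94%), and adhesion proteins and membrane-bound ligands had 27 of 342 (7.89%). Channels followed with 11 of 253 (4.35%), receptors with 12 of 409 (2.93%), enzymes with 53 of 2112 (2.51%) and transcription factors with 23 of 924 (2.49%). Transporters, with 6 of 396 (1.52%), lay near the background, and noncoding RNAs had 19 of 2371 called (0.801%). Coding genes that fitted none of these families had 108 of 9115 called (1.18%) and pseudogenes 2 of 773 (0.259%). Before adjustment, 2101 of the 17168 tested genes had an edgeR p under 0.05. This is the background for the unadjusted counts given for marker lists and families. The median log2 fold change of every class lay between -0.04 and 0.08, near the median of all genes. A median near 0 can also come from members that moved in both directions. DESeq2 was run on all genes with a read. Its counts for a family can therefore include genes outside the number tested in edgeR.

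Sequencing depth can bear on such shares. The median level in WT, per kilobase of exon, was 0.87 CPM for noncoding RNAs, 1.31 for channels, 2.60 for secreted proteins and 7.37 for enzymes, and the median SE of the log2 fold change was 0.37 for noncoding RNAs and 0.13 for enzymes. Among genes with a mean of at least 5 CPM over the 6 embryos, 2.02% of 11789 were called. At that level 31 of 293 secreted genes were called (10.6%), as were 23 of 250 adhesion genes (9.2%), 8 of 141 channels (5.67%) and 9 of 248 receptors (3.63%). The counts were 50 of 1755 enzymes (2.85%), 19 of 768 transcription factors (2.47%), 2 of 296 transporters (0.676%) and 3 of 375 noncoding RNAs (0.8%). Of all 11304 protein-coding genes at that level 2.08% were called, so the transcription factor share lay near this background. At this level secreted and adhesion genes lay above enzymes, and transporters and noncoding RNAs, with few calls, below. The part of depth in the order of the classes was not tested.

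**Figure D2:**
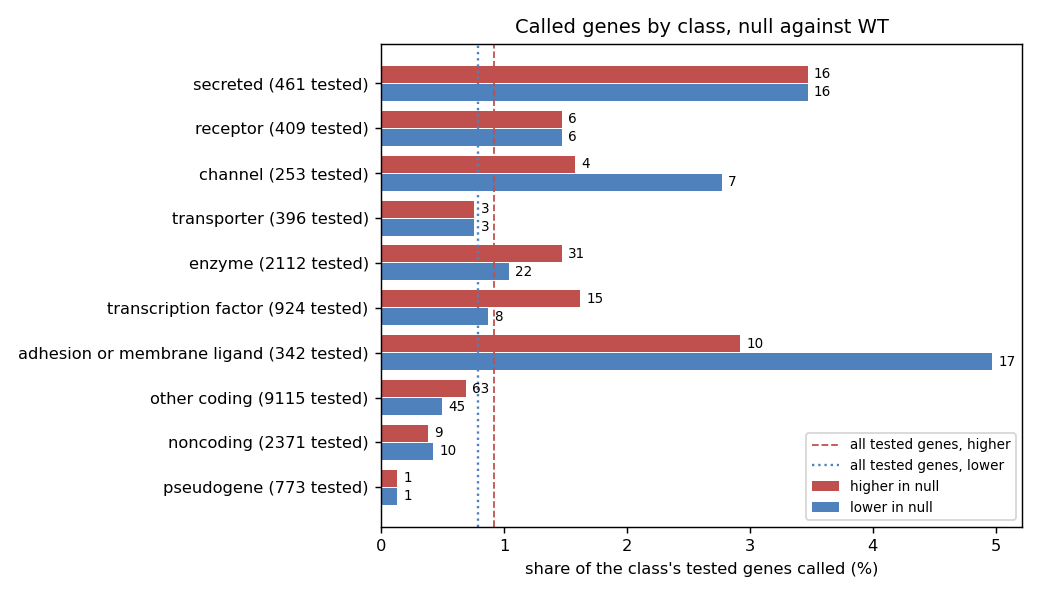
Share of each class's tested genes called higher (red bars) or lower (blue bars) in null, in percent, with the number of called genes at the end of each bar and the shares of all tested genes as dashed and dotted lines (0.92% higher, 0.786% lower). Secreted genes reach 3.47% in both directions, and adhesion genes reach 4.97% lower in null.

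The number of calls depended on single embryos. Without null embryo 3, the embryo rich in cartilage RNA, 214 genes were higher and 232 lower, and 267 of the 293 calls were kept. Without WT embryo 1 the counts were 37 and 41, and without WT embryo 2 they were 31 and 37, with 68 of the 293 kept. Removing WT embryo 3 gave 79 and 79, null embryo 1 84 and 75, and null embryo 2 109 and 86. With the mesenchyme sum as a covariate the counts were 257 and 183 and 274 of the 293 calls were kept. Sex was not balanced, with 1 male of 3 in WT and 2 of 3 in null, and a fit with sex as a term kept 195 of the 293. Of the 48 genes that the rule for naming selects, 13 were not called with the sex term: Epyc, Gpr139, Vipr1, Il10ra, Scn4b, Slc15a5, Msc, Ehf, Lrrn4, Lrfn5, Pcdh19, Dlx6os1 and 5730403I07Rik. Lrfn5 and Dlx6os1 were also not called with RLE scaling or with the mesenchyme covariate. In all, 62 of the 293 calls held in every one of the 6 fits that left out 1 embryo, among them 15 of 53 enzymes, 7 of 32 secreted genes, 7 of 23 transcription factors, 4 of 27 adhesion genes, 4 of 19 noncoding RNAs, 3 of 11 channels, 2 of 12 receptors and 1 of 6 transporters. Of the genes given below with a log2 value but not with every embryo, Frzb, Gas1, Gucy1b1, Alpk2, Esrrb and Cdh4 held in all 6 of these fits, Cyp26c1 and Pcdh11x in 5, Aldh1a1 and Tac1 in 4, Rspo2, Cnga2, Dlx2 and Sema6d in 3, Nalcn, Fzd8, Adcy1, Thrb and Pcdh15 in 2, Wnt4, Gria3 and Pcdh20 in 1, and Cdh6 in 0. No call took the opposite direction in any of the 13 alternative fits. The share of a class relative to all genes was steadier than its count: it stayed above 1 in all 13 for secreted (3.69 to 5.22 times the share of all genes), adhesion (3.25 to 6.26), channel (2.31 to 3.11), receptor (1.23 to 2.76), enzyme (1.40 to 2.15) and transcription factor genes (1.303 to 2.5), and below 1 in all 13 for noncoding RNAs (0.21 to 0.54) and pseudogenes. For transporters it ranged from 0.55 to 2.11.

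**Figure D3:**
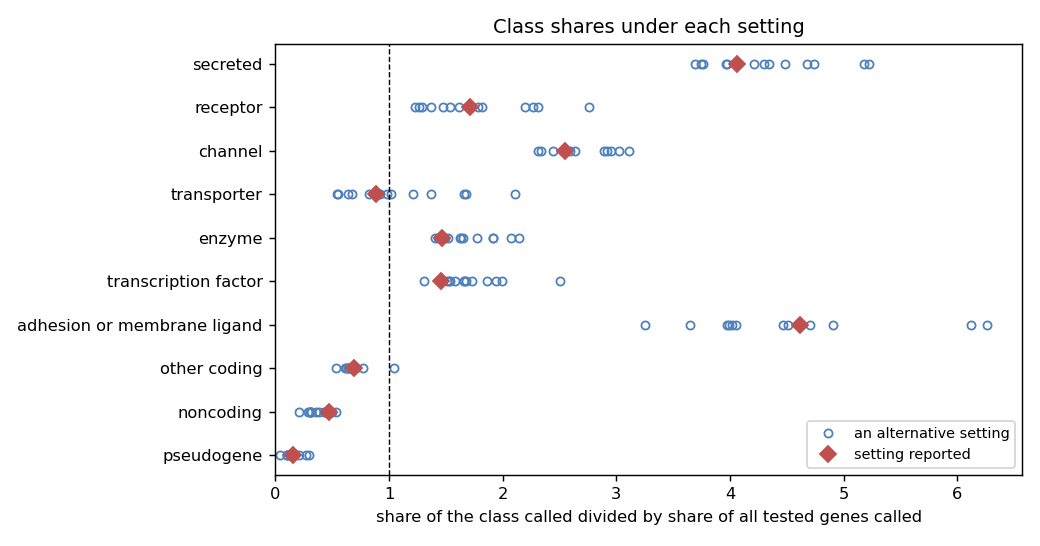
Share of each class called divided by the share of all tested genes called (x axis, a ratio without unit), in the fit reported (red diamond) and in each of the 13 alternative fits (blue circles), with a dashed line at 1. Secreted and adhesion genes lie at 3.25 or more in every fit, noncoding RNAs at 0.54 or less, and transporters fall on both sides of the line.

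Several of the called genes lie side by side on a chromosome, and the promoters of some of these are shown here because their neighbors moved together. Bases before the RefSeq start are written 5′ to 3′ on the gene's own strand (GRCm38.p6), and capitals mark CG dinucleotides and any TATAAA on either strand. The nearest RefSeq starts of Abcg5 and Abcg8 have 109 bases between them and point away from each other, and both genes fell; the bases between the starts, chr17:84683012-84683120 on the minus strand, hold 3 CG and 1 TATAAA match. Gucy1a1 (chr3:82145651-82145900, minus strand, 12 CG) and Gucy1b1 (chr3:82074712-82074961, minus strand, 5 CG) both fell as well. Dlx1 (chr2:71529195-71529444, plus strand, 22 CG) and Dlx2 (chr2:71546755-71547004, minus strand, 24 CG) both rose. Corin (chr5:72504541-72504790, minus strand, 2 CG), the called enzyme gene with the largest rise, and Prox1 (chr1:190170828-190171077, minus strand, 20 CG and 1 TATAAA match) complete the set as a CG-poor and a CG-rich example.
Abcg5: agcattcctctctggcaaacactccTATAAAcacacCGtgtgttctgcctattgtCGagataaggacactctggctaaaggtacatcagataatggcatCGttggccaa
Gucy1a1: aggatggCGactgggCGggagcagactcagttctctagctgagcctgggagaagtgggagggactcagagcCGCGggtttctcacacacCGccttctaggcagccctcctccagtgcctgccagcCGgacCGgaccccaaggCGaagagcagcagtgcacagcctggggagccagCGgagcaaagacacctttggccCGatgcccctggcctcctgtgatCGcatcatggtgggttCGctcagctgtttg
Gucy1b1: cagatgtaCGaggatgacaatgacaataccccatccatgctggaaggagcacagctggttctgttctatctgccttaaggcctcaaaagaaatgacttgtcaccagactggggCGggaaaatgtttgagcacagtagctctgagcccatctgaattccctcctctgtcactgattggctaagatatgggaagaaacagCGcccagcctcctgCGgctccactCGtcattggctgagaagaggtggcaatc
Dlx1: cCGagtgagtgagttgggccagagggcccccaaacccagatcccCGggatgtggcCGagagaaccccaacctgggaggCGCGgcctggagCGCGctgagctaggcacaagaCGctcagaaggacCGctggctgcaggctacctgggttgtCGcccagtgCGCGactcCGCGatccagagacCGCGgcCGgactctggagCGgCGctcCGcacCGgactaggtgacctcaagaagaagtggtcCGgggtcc
Dlx2: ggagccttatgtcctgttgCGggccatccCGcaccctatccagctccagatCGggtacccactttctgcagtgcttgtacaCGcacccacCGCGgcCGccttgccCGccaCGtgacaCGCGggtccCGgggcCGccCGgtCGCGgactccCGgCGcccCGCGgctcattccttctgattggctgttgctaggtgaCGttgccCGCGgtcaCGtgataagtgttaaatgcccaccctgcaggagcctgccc
Corin: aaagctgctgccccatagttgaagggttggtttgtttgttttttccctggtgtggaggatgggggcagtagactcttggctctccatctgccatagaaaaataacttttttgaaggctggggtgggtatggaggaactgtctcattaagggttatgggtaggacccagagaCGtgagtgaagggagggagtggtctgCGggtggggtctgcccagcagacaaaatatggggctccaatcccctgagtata
Prox1: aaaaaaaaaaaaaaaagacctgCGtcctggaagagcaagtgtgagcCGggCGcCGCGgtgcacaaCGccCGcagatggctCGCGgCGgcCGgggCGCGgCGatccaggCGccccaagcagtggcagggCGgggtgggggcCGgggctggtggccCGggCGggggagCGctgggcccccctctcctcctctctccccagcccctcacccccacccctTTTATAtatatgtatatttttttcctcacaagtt

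Of the 293 called genes, 211 matched a promoter window in the RefSeq table (112 higher and 99 lower), as did 11765 of the 17168 tested. A window was counted as CG-rich when its 300 bases, 250 before and 50 after the start, held CG at 0.6 or more of the number its C and G content would give by chance. Among tested genes with a matched window, this was so for 70.7% of 10956 protein-coding genes, for 51 of 108 protein-coding genes called higher (47.2%) and for 50 of 92 called lower (54.3%). This share differed between classes, since of those with a window 41.6% of 329 secreted genes but 68.5% of 1683 enzymes and 68.2% of 718 transcription factors were CG-rich. Of the called enzymes 15 of 41 were CG-rich (36.6%), of the called secreted genes 11 of 22 (50%), of the called transcription factors 13 of 17 (76.5%) and of the called coding genes outside the families 41 of 75 (54.7%, against 75.1% of all 7186 with a window). The motif TATAAA was sought on both strands in every window of a gene. At least 1 window held it for 15 of the 108 higher genes (13.9%), 8 of the 92 lower genes (8.7%) and 8.7% of the 10956 protein-coding genes. Counted by window and not by gene, 13.6% of all windows in the table held it. These matches are descriptions of the letters in the windows and were not tested.

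Secreted proteins carry signals between the regions of the duct and build the tectorial membrane and basement membranes. Of the 461 tested, 16 rose and 16 fell, and this balance was not kept in other fits, with 22 and 34 without null embryo 3, 37 and 19 with the mesenchyme covariate, 39 and 25 in DESeq2 and 4 and 3 without WT embryo 2. Among 104 growth factors and morphogens Fgf16, Fgf20, Fibin, Egfl6 and Wnt4 rose and Rspo2 and Fgf10 fell. Fgf16, a fibroblast growth factor, read 3.38, 2.56 and 2.68 CPM in WT and 10.9, 12.04 and 9.01 CPM in null, a log2 change of 1.89 ± 0.20 (edgeR adjusted p = 0.00494). Rspo2, an enhancer of Wnt signaling, changed by -0.88 ± 0.12 on the log2 scale, and Wnt4, a Wnt ligand, by 0.53 ± 0.08. Of 41 antagonists and ligand-binding proteins, Chrdl1 and Bmper rose and Ltbp4, Vwc2 and Frzb fell. Chrdl1, a binding antagonist of bone morphogenetic proteins (BMPs), read 18.6, 16.4 and 17.3 CPM in WT and 67.7, 67.6 and 74.2 CPM in null, a log2 change of 2.00 ± 0.09 (edgeR adjusted p = 0.000148). The embryos of each genotype lay close together for this gene. Frzb, a secreted Wnt-binding protein, had a mean of 44.4 ± 3.0 CPM (standard deviation, SD, n = 3) in WT and 21.1 ± 0.46 CPM in null.

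Among 40 peptide hormone and neuropeptide genes Npy rose while 1500015O10Rik and Tac1 fell. The largest decrease among called secreted genes was that of 1500015O10Rik, also known as Ecrg4, which encodes a secreted peptide precursor and is among the study's Kölliker's organ markers. It read 131.6, 128.5 and 115.7 CPM in WT and 19.4, 16.4 and 18.9 CPM in null, a log2 change of -2.78 ± 0.10 (edgeR adjusted p = 7.62e-05). Npy, neuropeptide Y, had 0.96, 1.499 and 1.32 CPM in WT and 5.64, 5.15 and 4.71 CPM in null, 2.03 ± 0.24 on the log2 scale (edgeR adjusted p = 0.0074). Tac1, the precursor of substance P, changed by -1.27 ± 0.15 on the same scale.

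Matrix proteins changed in both directions. Of 63 matricellular proteins and proteoglycans Postn, Adamtsl4 and Cthrc1 rose and Epyc, Pcolce2, Spock1 and Smoc2 fell. Epyc, a small leucine-rich proteoglycan, read 230.4, 144.6 and 123.5 CPM in WT and 23.9, 37.0 and 59.1 CPM in null, a log2 change of -2.05 ± 0.35 (edgeR adjusted p = 0.0316). Null embryo 3 was the highest of the nulls for Epyc and also for Pcolce2, an enhancer of procollagen processing, which read 46.0, 42.1 and 29.6 CPM in WT and 9.84, 10.1 and 17.4 CPM in null (log2 fold change -1.66 ± 0.26). Of 37 collagens Col6a1 rose and Col4a6 fell, of 13 genes listed as tectorial membrane, otoconial and related secreted proteins Tectb rose and Tecta and Mia fell (Mia encodes a secreted protein of cartilage and is not known as a part of these membranes), and Emilin3 and Fbln7 rose among 44 laminins and fiber proteins. Of 20 cytokines and chemokines edgeR and DESeq2 each called 0, and 1 had an unadjusted p under 0.05. The calls of Npy, Chrdl1, Fgf16 and 1500015O10Rik held in all 6 fits that left out 1 embryo, whereas Epyc passed in 1 of 6 and Pcolce2 in 2 of 6, with adjusted p up to 0.127 and 0.129. Hapln1, a cartilage link protein, was not called (edgeR adjusted p = 0.283) and read 513.4 CPM in null embryo 3, the embryo with high Acan, and at most 4.498 CPM in the other 5.

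Receptors take up these signals at the cell surface. Of the 409 tested, 6 rose and 6 fell, and 9 and 21 were called without null embryo 3. With the mesenchyme covariate the counts were 10 and 13. Among 160 G protein-coupled receptors Gpr139 and Vipr1 rose and Fzd8 and Gpr179 fell. Gpr139 read 2.10, 3.55 and 3.33 CPM in WT and 15.4, 9.05 and 8.89 CPM in null, a log2 change of 1.89 ± 0.30 (edgeR adjusted p = 0.0241). The null embryos spread more than the WT embryos for this receptor. Vipr1, a receptor for vasoactive intestinal peptide, read 1.36, 1.22 and 1.73 CPM in WT and 4.57, 3.35 and 3.59 CPM in null (1.41 ± 0.25). Fzd8, a Wnt receptor, changed by -0.88 ± 0.13, from 37.3 ± 6.0 CPM (SD, n = 3) to 20.3 ± 0.74 CPM. Among 58 receptor tyrosine kinases and co-receptors Ephb1 and Pdgfrl rose and Epha6 fell, and of 56 guidance, Notch and hedgehog receptors Gas1, a co-receptor for hedgehog ligands, rose by 0.89 ± 0.10 on the log2 scale.

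Epha6, a receptor for ephrin-A ligands, read 3.02, 3.63 and 4.49 CPM in WT and 0.70, 0.35 and 0.71 CPM in null, a log2 change of -2.67 ± 0.34 (edgeR adjusted p = 0.00871). Pla2r1 and Ly75, members of the mannose receptor family, both fell among 54 endocytic and scavenger receptors. Pla2r1, which binds secreted phospholipase A2, had 58.4, 55.2 and 46.0 CPM in WT and 13.3, 10.3 and 12.01 CPM in null, a log2 change of -2.17 ± 0.14 (edgeR adjusted p = 0.000834). No null embryo exceeded 13.3 CPM and no WT embryo was below 46.0 CPM for Pla2r1. Tlr2, a receptor of innate immunity, read 16.5, 17 and 17.2 CPM in WT and 33.2, 40.7 and 31.2 CPM in null (1.05 ± 0.12, edgeR adjusted p = 0.0074). Il10ra, a subunit of the interleukin-10 receptor that immune cells carry, rested on 34, 43 and 28 reads in WT and 4, 1 and 6 reads in null (-3.14 ± 0.59, edgeR adjusted p = 0.0454), beside macrophage genes that summed to 2.48 to 11.97 CPM in WT and 1.77 to 5.97 CPM in null. Of the 6 receptors given here with every embryo, Pla2r1 alone held in all 6 fits that left out 1 embryo. Epha6 held in 5, Tlr2 in 4, Gpr139 in 2, and Vipr1 and Il10ra in 1, with adjusted p up to 0.237. Of 15 serine/threonine kinase receptors, the receptors of BMPs and transforming growth factor β, edgeR and DESeq2 each called 0, and 1 had an unadjusted p under 0.05.

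Channels set the ionic milieu and excitability of the duct. Of 253 tested, 4 rose and 7 fell, against 6 and 10 without null embryo 3, 5 and 10 with the mesenchyme covariate and 1 and 2 without WT embryo 2. Sodium channel genes were called in both directions, with Scnn1b and Nalcn higher and Scn4b and Scn9a lower among 20 tested. Scnn1b, the β subunit of the epithelial sodium channel, read 7.98, 6.90 and 8.02 CPM in WT and 21.3, 23.8 and 21.4 CPM in null, a log2 change of 1.54 ± 0.13 (edgeR adjusted p = 0.00214). Scn9a, a voltage-gated sodium channel of sensory neurons, read 4.596, 4.89 and 2.99 CPM in WT and 0.12, 0.32 and 0.63 CPM in null (-3.53 ± 0.49, edgeR adjusted p = 0.0144). Scn4b, an auxiliary subunit of such channels, had 54, 38 and 43 reads in WT and 0, 5 and 6 in null. Of the spiral ganglion neuron markers, Nefm, a neurofilament, read 1.84, 1.73 and 6.58 CPM in WT and 0.99, 2.41 and 16.6 CPM in null, and Nefl was at most 2.85 CPM in WT and highest in null embryo 3, at 7.80 CPM. Isl1, which the otic epithelium also expresses, made up most of the list's sum, at 174.5 to 272.4 CPM over the 6 embryos, and 0 of the 4 markers tested were called by edgeR or DESeq2 or had an unadjusted p under 0.05.

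Nalcn, the sodium leak channel, rose from 113 ± 7.4 CPM (SD, n = 3) to 173 ± 16 CPM. P2rx2, an ATP-gated channel, read 12.02, 9.39 and 14.4 CPM in WT and 30.8, 42.5 and 30.4 CPM in null (1.53 ± 0.20, edgeR adjusted p = 0.0102), while Gria3, a glutamate receptor subunit, changed by -0.68 ± 0.12. Kcns1, a modulatory potassium channel subunit and the only called gene of 61 potassium channel genes, read 1.54, 1.62 and 1.02 CPM in WT and 3.71, 5.28 and 8.89 CPM in null (2.09 ± 0.37, edgeR adjusted p = 0.0359). Pkd1l1, a polycystin-family protein, read 11.1, 7.93 and 7.37 CPM in WT and 2.39, 1.83 and 1.75 CPM in null (-2.14 ± 0.24, edgeR adjusted p = 0.00603), and Cnga2, a cyclic nucleotide-gated channel, changed by -1.26 ± 0.19. The intracellular chloride channel family genes Clic6 and Clic5 completed the decreases. Of 42 calcium channel genes edgeR called 0 and DESeq2 1 (8 at an unadjusted p under 0.05), and of 20 gap junction, pannexin and aquaporin genes both called 0 (3 at an unadjusted p under 0.05). Scnn1b and Pkd1l1 held in all 6 fits that left out 1 embryo, P2rx2 in 4, Scn9a in 3, and Kcns1 and Scn4b in 2, with adjusted p up to 0.219.

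Transporters move solutes across membranes, and only 6 of 396 were called, a share near that of all genes. Slc15a5 and Slco3a1 were among the solute carriers that rose, of 297 tested, where edgeR called 0 lower. DESeq2, run without the low-count filter, called 8 solute carriers higher and 8 lower. Slc15a5, a member of the oligopeptide transporter family, read 0.882, 1.184 and 1.155 CPM in WT and 2.965, 3.734 and 2.42 CPM in null, a log2 change of 1.5 ± 0.27 (edgeR adjusted p = 0.0386). Of 37 ABC transporters the pair Abcg5 and Abcg8 fell, whose products join to export sterols. Abcg5 read 16.03, 11.1 and 8.73 CPM in WT and 2.14, 2.00 and 1.42 CPM in null, a log2 change of -2.69 ± 0.28 (edgeR adjusted p = 0.00515), and Abcg8 read 3.12, 2.13 and 1.495 CPM in WT and 0.37, 0.13 and 0.04 CPM in null (-3.62 ± 0.61, edgeR adjusted p = 0.0309). Abcg5 held in all 6 fits that left out 1 embryo, Abcg8 in 2 and Slc15a5 in 1. The counts of this class were 5 higher and 9 lower without null embryo 3 and 7 and 10 with the mesenchyme covariate.

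Enzymes gave the most calls of any family class, 31 higher and 22 lower, against 38 and 40 without null embryo 3, 52 and 30 with the mesenchyme covariate and 9 and 8 without WT embryo 2. Proteases and peptidases held 10 of the increases and 6 of the decreases, out of 257 tested. Corin, a membrane serine protease that activates natriuretic peptides, read 0.40, 0.20 and 0.48 CPM in WT and 7.45, 7.57 and 7.88 CPM in null, a log2 change of 4.38 ± 0.31 (edgeR adjusted p = 0.00145). Cpa6, a secreted carboxypeptidase, read 2.54, 1.70 and 2.58 CPM in WT and 17.8, 18.6 and 11.4 CPM in null (2.80 ± 0.26, edgeR adjusted p = 0.00316). The other proteases that rose were Cpm, Prss33, Prss23, Adamts1, Masp1, Adamts5, Cpxm1 and Anpep, by 0.52 to 2.13 on the log2 scale. Tmprss4, a membrane serine protease of epithelia, fell from 105, 69 and 79 reads in WT to 2, 3 and 1 in null, so that the summed null count, scaled for depth, was 2.44% of WT (95% exact interval 0.886 to 5.38%, counting error only). Pappa2, Tmprss6, Mmp28, Cpxm2 and Pcsk6 were the other proteases that fell.

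Glycan and sulfate enzymes were called 3 in each direction of 209, with Chst5, Lfng and Hs3st6 higher and B3galt2, Chst15 and St8sia3 lower. Chst5, a sulfotransferase acting on N-acetylglucosamine, read 4.41, 6.16 and 8.56 CPM in WT and 41.9, 34.6 and 45.3 CPM in null, a log2 change of 2.67 ± 0.24 (edgeR adjusted p = 0.00296). In nucleotide metabolism, Upp1, which cleaves uridine, read 25.4, 21.3 and 15.5 CPM in WT and 1.03, 1.16 and 1.58 CPM in null (-4.04 ± 0.26, edgeR adjusted p = 0.000834). Of the subunit genes of the soluble guanylate cyclase that nitric oxide activates, Gucy1a1 and Gucy1b1 fell, while Gucy1a2 was not called (-1.10 ± 0.25, edgeR adjusted p = 0.0842). Gucy1a1 read 11.4, 9.79 and 5.84 CPM in WT and 1.28, 1.96 and 1.42 CPM in null (-2.53 ± 0.31), and its partner Gucy1b1 changed by -2.47 ± 0.24 (edgeR adjusted p = 0.00382). Adcy1, which makes cyclic AMP, rose by 0.83 ± 0.13 on the log2 scale. Among 210 redox, aldehyde and amino acid enzymes Bbox1, Ddc, Aldh1a1, Gstm1 and Ddah1 rose and 0 fell, while DESeq2 called 12 higher and 4 lower, and edgeR without null embryo 3 called 6 and 5. Aldh1a1, which makes retinoic acid, had a log2 fold change of 1.18 ± 0.15, and Cyp26c1, which degrades it, one of -1.10 ± 0.14.

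Protein kinases were called at 4 higher (Alpk2, Sgk1, Cdk6 and Stk39) and 5 lower (Ptk2b, Frk, Cdk15, Mapkapk3 and Prkd1) of 327. Alpk2, an alpha kinase, had the largest change of these, 2.41 ± 0.14 (edgeR adjusted p = 0.000568). Of 168 chromatin and DNA enzymes edgeR called 0 and DESeq2 4 (21 at an unadjusted p under 0.05), and of 94 genes of the respiratory chain and ATP synthase both called 0 (5 at an unadjusted p under 0.05). Corin, Cpa6, Chst5, Tmprss4 and Upp1 held in all 6 fits that left out 1 embryo, and Gucy1a1 in 4 of 6 with adjusted p up to 0.0583.

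Transcription factors set the identity of the regions of the duct. Of 924 tested, 15 rose and 8 fell, the latter including Prdm16 itself, and the counts were 21 and 15 without null embryo 3 and 26 and 18 with the mesenchyme covariate. Of 73 homeodomain and paired box genes Gbx1, Dlx5, Prox1, Dlx1 and Dlx2 rose and edgeR called 0 lower. DESeq2 called 11 higher and 1 lower of this family, and the fits that left out 1 embryo called 2 to 6 higher and 0 lower. Dlx1 read 10.2, 9.23 and 11.7 CPM in WT and 25.9, 25.04 and 25.2 CPM in null, a log2 change of 1.29 ± 0.12 (edgeR adjusted p = 0.00343), and Dlx2 changed by 1.01 ± 0.14 (edgeR adjusted p = 0.0151). Dlx5, of another Dlx cluster and active in the dorsal otic epithelium, read 1.62, 1.62 and 2.07 CPM in WT and 5.60, 6.28 and 5.34 CPM in null (1.69 ± 0.21, edgeR adjusted p = 0.00768). Prox1, a factor of the prosensory domain and its supporting cells, read 32.4, 22.9 and 30.2 CPM in WT and 80.3, 62.97 and 69 CPM in null (1.31 ± 0.15, edgeR adjusted p = 0.00662). The rule for naming Dlx1, Dlx5 and Prox1 asked for values that do not overlap.

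Of 37 nuclear receptors Nr2e1, Esrrb and Thrb fell and Rora rose. Nr2e1, an orphan receptor known from neural stem cells and retina, read 18.8, 11.5 and 9.07 CPM in WT and 0.041, 0.42 and 0.33 CPM in null, a log2 change of -5.57 ± 0.57 (edgeR adjusted p = 0.00459). The null embryos held 1, 13 and 8 reads of this gene, where the WT embryos held 512, 291 and 267. Esrrb, an orphan receptor needed in the stria vascularis, changed by -1.45 ± 0.18, and Thrb, a thyroid hormone receptor needed for hearing, by -0.78 ± 0.11. Msc, a basic helix-loop-helix repressor, read 11.8, 10.2 and 6.96 CPM in WT and 0.25, 0.032 and 1.17 CPM in null (-4.36 ± 0.82, edgeR adjusted p = 0.0455). Ehf, an epithelial ETS factor, read 4.82, 4.89 and 3.26 CPM in WT and 0.91, 1.51 and 1.58 CPM in null (-1.69 ± 0.30, edgeR adjusted p = 0.0362). Of 50 SOX, FOX and T-box factors edgeR called 0 and DESeq2 3 (11 at an unadjusted p under 0.05). Zfp385c, Zfp503 and Zfp57 rose among 376 tested genes named Zfp. DESeq2, without the low-count filter, called 4 genes of this family higher and 4 lower. Prox1, Dlx1 and Nr2e1 held in all 6 fits that left out 1 embryo, Dlx5 in 4, and Msc and Ehf in 1, with adjusted p up to 0.199 and 0.196.

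Adhesion proteins and membrane-bound ligands had the largest share of calls in the fit reported, with 10 higher and 17 lower of 342, against 10 and 25 without null embryo 3, 15 and 17 with the mesenchyme covariate and 2 and 4 without WT embryo 2. Cadherins and protocadherins fell in 5 of the 6 called cases of 82 tested. Pcdh19, a protocadherin, read 11.4, 12.7 and 7.98 CPM in WT and 3.75, 2.16 and 3.92 CPM in null, a log2 change of -1.71 ± 0.28 (edgeR adjusted p = 0.0282). Pcdh11x, Cdh4, Pcdh15 and Pcdh20 also fell, by log2 values of -1.32, -0.85, -0.82 and -0.78, and Cdh6 rose by 1.09 ± 0.20. Pcdh15 is a tip link protein of hair cells, whose summed markers were 129.5 to 168.5 CPM in WT and 135.3 to 206.9 CPM in null. Among 79 immunoglobulin superfamily genes 5 rose (Mdga1, Cntn6, Vstm2b, Lsamp and Bcam) and 5 fell (Vstm2a, Igsf11, L1cam, Nfasc and Sdk1). Mdga1, a membrane-anchored regulator of synaptic adhesion, read 4.82, 4.69 and 2.51 CPM in WT and 18.5, 12.4 and 20.7 CPM in null (2.10 ± 0.30, edgeR adjusted p = 0.0159).

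Synaptic and leucine-rich repeat proteins were called 3 in each direction of 57, with Lrrn4, Nrxn3 and Astn2 higher and Lrfn5, Lrrtm3 and Ntng1 lower. Lrrn4, a leucine-rich repeat neuronal protein, read 0.51, 0.51 and 0.34 CPM in WT and 1.89, 1.83 and 1.58 CPM in null (1.95 ± 0.31, edgeR adjusted p = 0.0231). Lrfn5, a synaptic adhesion protein, read 1.25, 2.01 and 0.71 CPM in WT and 0.25, 0.19 and 0.25 CPM in null (-2.51 ± 0.48, edgeR adjusted p = 0.0499). The integrins Itga8 and Itgb6 fell of 25 tested, and Sema6d was the only called gene of 29 membrane-bound ligands, at -0.93 ± 0.14. Of the adhesion genes named with all values, Mdga1 held in 3 of the 6 fits that left out 1 embryo, Pcdh19 in 2, and Lrrn4 and Lrfn5 in 1, with adjusted p up to 0.23.

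Coding genes outside these families included the largest increase of any gene named here. Of 9115, 63 rose and 45 fell, against 95 and 55 with the mesenchyme covariate. Fndc7, a fibronectin type III domain protein, read 0.74, 0.43 and 0.41 CPM in WT and 29.1, 23.5 and 24.3 CPM in null, a log2 change of 5.60 ± 0.25 (edgeR adjusted p = 0.000148). Fgf14, an intracellular fibroblast growth factor homolog that binds sodium channels, read 0.62, 0.28 and 0.34 CPM in WT and 4.74, 4.67 and 4.84 CPM in null (3.50 ± 0.33, edgeR adjusted p = 0.00316). Mx1, an interferon-induced GTPase, had 104, 66 and 64 reads in WT and 3, 2 and 1 in null, and the summed null count was 2.63% of WT (95% exact interval 0.957 to 5.82%, counting error only). B230104I21Rik, which lies within the Prdm16 gene on the opposite strand and shares 109 exonic bases with it, had 21, 42 and 48 reads in WT and 0, 1 and 1 in null. Fndc7, Fgf14 and Mx1 held in all 6 fits that left out 1 embryo and B230104I21Rik in 5.

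Noncoding RNA genes were called at 9 higher and 10 lower of 2371, beside 272 of 14011 protein-coding genes (1.94%). The sex term gave 1 higher and 8 lower, the fit without WT embryo 2 gave 1 and 4, and the mesenchyme covariate left the counts at 9 and 10. Long intergenic RNAs accounted for 12 of the 19 calls, 6 in each direction of 535, but 1 higher and 5 lower with the sex term and 1 and 3 with the replicate block. Of 608 unclassified transcripts edgeR called 0 and DESeq2 3 (56 at an unadjusted p under 0.05), and of 79 bidirectional promoter RNAs both called 0 (9 at an unadjusted p under 0.05). In these poly(A)-selected libraries both called 0 of 68 sense intronic RNAs (1 at an unadjusted p under 0.05), 0 of 63 small nucleolar RNA genes and 0 of 21 miRNA genes (0 at an unadjusted p under 0.05). Gm45889 read 1.76, 2.01 and 2.31 CPM in WT and 8.36, 7.60 and 7.59 CPM in null, a log2 change of 1.95 ± 0.19 (edgeR adjusted p = 0.00343). Gm35835 read 5.40, 5.29 and 3.33 CPM in WT and 0.21, 0.35 and 0.13 CPM in null (-4.29 ± 0.40, edgeR adjusted p = 0.00319), and the neighboring Gm48784, chosen after its values were seen, had 0 reads in the null embryos, where 3 reads per library would be 0.0966 to 0.125 CPM, and 0.75 to 1.18 CPM in WT. The antisense transcript Gm13781 read 2.72, 3.00 and 1.56 CPM in WT and 0.21, 0.23 and 0.083 CPM in null (-3.76 ± 0.45, edgeR adjusted p = 0.00762). For 5730403I07Rik the values were 1.29, 1.81 and 1.63 CPM in WT and 3.54, 3.93 and 4.05 CPM in null (1.28 ± 0.22, edgeR adjusted p = 0.0359). The sense-overlapping transcript 2410124H12Rik, at the Clic6 locus, read 7.68, 5.72 and 4.45 CPM in WT and 0.45, 0.93 and 0.50 CPM in null (-3.21 ± 0.36, edgeR adjusted p = 0.00609). Dlx6os1, from the strand opposite Dlx6, read 0.44, 0.28 and 0.31 CPM in WT and 1.69, 1.54 and 0.92 CPM in null (2.01 ± 0.39, edgeR adjusted p = 0.0499). Gm45889, Gm35835 and 2410124H12Rik held in all 6 fits that left out 1 embryo, Gm13781 in 4, Dlx6os1 in 1 and 5730403I07Rik in none.

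**Figure D4:**
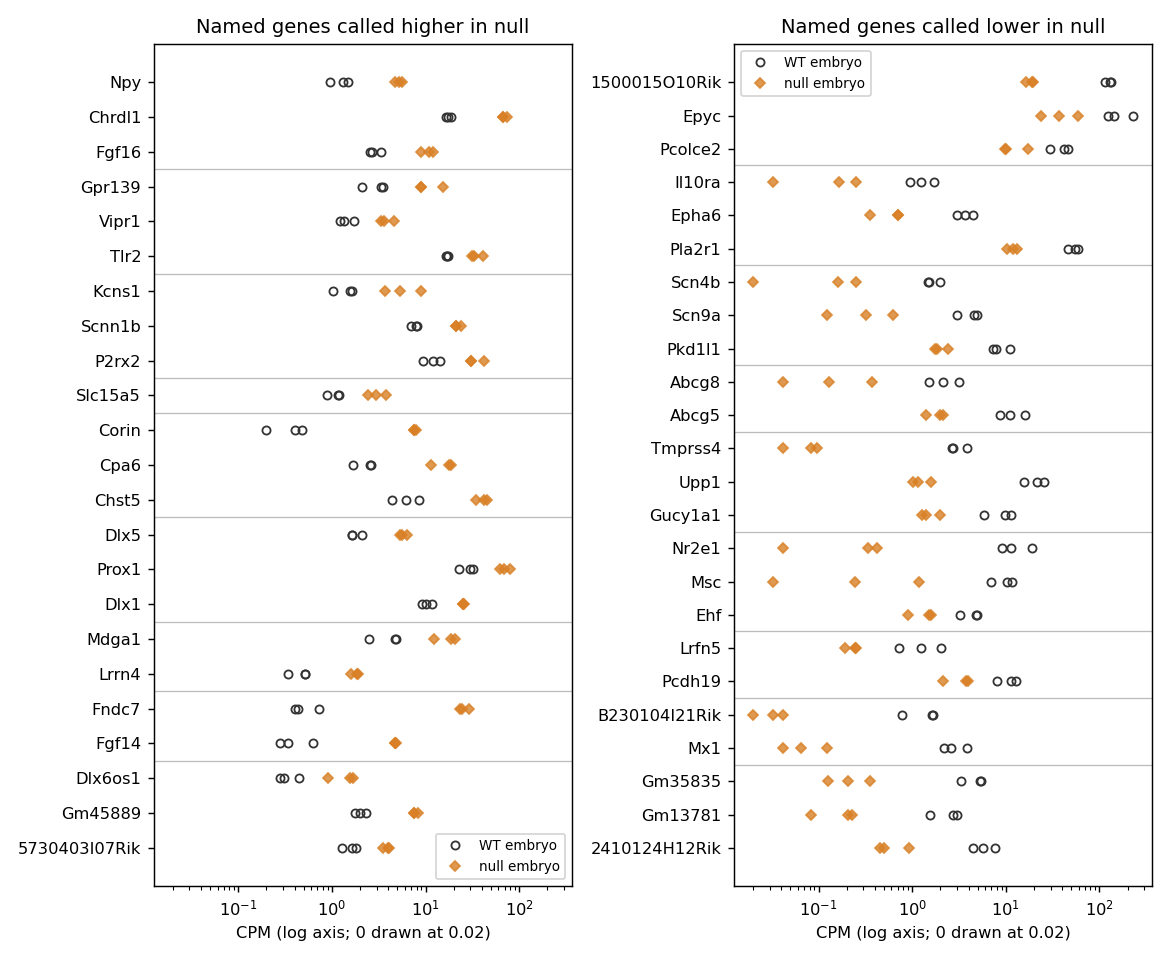
CPM (log axis, 0 drawn at 0.02) of the genes given by rule in the 3 WT embryos (open circles) and 3 null embryos (orange diamonds), for genes called higher (left) and lower (right) in null. Gray lines separate, from top to bottom, secreted, receptor, channel, transporter, enzyme, transcription factor, adhesion, other coding and noncoding genes; the rule for naming asked for values that do not overlap, and Fndc7 rises from at most 0.74 CPM in WT to at least 23.5 CPM in null.

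Several of these genes share exonic bases with another annotated gene, and because the sources used here do not state whether reads were counted by strand, reads there cannot be assigned with certainty. Among the named genes such partners on the opposite strand were Gm10754 for Epyc (1041 bases), Gm9017 for Epha6, Gm13583 for Pla2r1, Gm13629 for Scn9a, Gm20647 for Corin, Gm17099 for Tmprss4 (412 bases), Prox1os for Prox1, Dlx1as for Dlx1, Gm9947 for Msc (539 bases), Gm26851 for Pcdh19, Gm28932 for Fgf14, Gm27905 for Dlx6os1 (207 bases), Prdm16 for B230104I21Rik, and Abcg5 and Abcg8 for each other (82 bases).

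Some called genes lay near each other on the chromosomes. Of 38086 pairs of tested genes that do not overlap and lie within 100 kb, 21 had both genes called (0.0551%), and in 19 of these 21 the direction was the same (90.5%). For comparison, 52.9% of all 38086 pairs had log2 fold changes of the same sign. In all, 35 of the 293 called genes belonged to such a pair. On chromosome 2 the mannose receptor family genes Ly75 and Pla2r1 and the integrin gene Itgb6 fell together, with gaps of 34240 and 44984 bases. On chromosome 9 Scn4b, Tmprss4 and Il10ra, a channel subunit, a protease and a cytokine receptor, fell together, with gaps of 18574 and 49745 bases. Gucy1b1 and Gucy1a1, 17738 bases apart on chromosome 3, fell, and Adamts1 and Adamts5, 53060 bases apart on chromosome 16, rose. Dlx1 and Dlx2, 9427 bases apart on chromosome 2, rose, as did Dlx5 and Dlx6os1, 6213 bases apart on chromosome 6. The pairs with opposite directions were Llgl2 with Myo15b and Tectb with Acsl5. The sharing of direction was described and not tested.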

How the data were processed

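RNA from the cochlear ducts of 9 embryos was sequenced after poly(A) selection, and 3 WT and 3 Prdm16-null libraries were analysed here. The values deposited by the authors are raw gene counts, not normalized. Per the labels' processing notes the tools were cutadapt 1.13, STAR, HTSeq 0.6.1p1 and DESeq2 with the mm10 build; the counting strand and annotation release are not given in the sources used here. The 37 mitochondrial genes have 0 counts in every library. Gene types, exon positions and overlaps came from GENCODE M21, which matched 54165 of 54232 identifiers.

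Counts were tested in edgeR 4.0.16 (R 4.3.3), by the quasi-likelihood test with TMM normalization after filterByExpr (minimum count 10), over all tested genes. CPM are TMM-scaled. Groups follow the genotype labels. Each library is 1 embryo, so p-values measure the spread between embryos; exact permutation over 3 and 3 embryos cannot give a two-sided p below 0.1. Libraries of 1 genotype differed by more than counting error. In a simulation of null against WT on 16826 genes, 124 of 195 changed genes were recovered with 15 false calls.

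Classes are families of gene symbols (patterns matched to protein-coding genes, first match only) and annotated gene types; symbols that fit no pattern stand in the remainder. No test was made over a class. Genes given with all values were, per class and direction, the 3 called genes with the largest log2 fold change (2 for transporter, adhesion and other coding genes) among those whose groups did not overlap and whose higher group averaged at least 1 CPM, leaving out genes the study names in its text; 1 gene this selects is not reported here. Other called genes of a family are listed in full, with values for some chosen after they were seen. The classes, lists and rules were chosen with earlier results of these data known. Promoter windows are RefSeq's (GRCm38.p6). The window nearest the annotated gene start was taken for CG content, and any window of the gene for TATAAA. Protein sequences were not used here. Alternatives were DESeq2 1.42.0 (run without the low-count filter), RLE scaling, no low-count filter, all 9 libraries, a replicate block, a sex term, each embryo left out, and, chosen after seeing the data, the log2 mesenchyme marker sum as covariate.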

Additional observations from a re-analysis of the deposited data

How the results depend on the processing

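Counts are given as higher and lower in null, and only where they moved by over 1.5 times. DESeq2 called 333 and 285 genes in all, secreted 39 and 25, receptor 17 and 18, channel 8 and 14, transporter 11 and 12, enzyme 55 and 45, transcription factor 34 and 16, adhesion 20 and 26, other coding 129 and 109, noncoding 17 and 19, and pseudogene 3 higher. Without the low-count filter there were 267 and 209 genes, receptor 12 and 10, transporter 6 and 10, transcription factor 28 and 15, other coding 101 and 73, and, higher, secreted 36, channel 7, adhesion 17 and pseudogene 2. With all 9 libraries there were 260 and 208 genes, receptor 13 and 12, channel 7 and 11, transporter 6 and 7, transcription factor 28 and 13, other coding 102 and 69, secreted 28 higher, enzyme 47 higher, noncoding 17 lower and pseudogene 2 higher. The sex term gave receptor 3 higher, transcription factor 5 lower, adhesion 10 lower, other coding 36 higher and noncoding 1 higher, and it kept 195 of the 293 calls. The mesenchyme covariate, added after seeing the data, gave 257 genes higher, secreted 37 higher, receptor 10 and 13, transporter 7 and 10, enzyme 52 higher, transcription factor 26 and 18, and other coding 95 higher. RLE scaling moved none of these counts by over 1.5 times. The cause of these shifts was not tested.

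Deviations from the genotype mean had correlations of 0.00152, -0.182 and -0.326 between WT and null embryos of the same replicate number. Between embryos of different numbers they ran from -0.355 to 0.394. With values spread this widely, these correlations cannot decide whether the numbers pair the embryos. The replicate block gave 65 and 68 genes, secreted 7 and 9, receptor 2 and 2, channel 2 and 3, transporter 1 higher, enzyme 16 and 11, transcription factor 6 and 5, adhesion 6 and 7, other coding 24 and 22, noncoding 1 and 6, and pseudogene 0 higher, and it kept 131 of the 293 calls.

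Leaving out 1 embryo gave 31 to 214 genes higher and 37 to 232 lower. The ranges, higher and lower, were 4 to 22 and 3 to 34 for secreted, 1 to 9 and 1 to 21 for receptor, 1 to 6 and 2 to 10 for channel, 0 to 5 and 1 to 9 for transporter, 9 to 38 and 8 to 40 for enzyme, 3 to 21 and 4 to 15 for transcription factor, 2 to 10 and 3 to 25 for adhesion, 10 to 92 and 9 to 66 for other coding, 1 to 9 and 4 to 11 for noncoding genes, and 0 to 2 for pseudogenes higher. Of the 48 genes the naming rule selects, 22 were still called without WT embryo 2 and 46 without null embryo 3, and in no fit did one change sign. Depth limits the low genes: 3 reads are 0.0966 to 0.125 CPM, and the median SE of the log2 fold change was 0.37 for noncoding RNAs and 0.15 for all genes.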

Other observations

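Called coding genes outside the families of the report are described here; they were chosen after their values were seen, and no test was made over them as groups. Calcium-binding proteins stood on both sides. Calb1, the buffer calbindin, read 24.01, 13.4 and 12.1 CPM in WT and 0.86, 0.74 and 0.63 CPM in null, a log2 change of -4.46 ± 0.33 (edgeR adjusted p = 0.00145). By contrast, S100b read 2.90, 3.63 and 4.82 CPM in WT and 12.4, 12.2 and 25.3 CPM in null (2.13 ± 0.34, edgeR adjusted p = 0.0241), and S100a13, the neighbor of S100a1, rose by 1.44 ± 0.23. Null embryo 3, the one with cartilage RNA, was the highest for S100b. Anxa5, a calcium-dependent membrane-binding protein, read 242 to 245 CPM in WT and 487 to 648 CPM in null (1.16 ± 0.12), and Pcp4, a regulator of calmodulin, rose by 2.11 ± 0.31. The WT and null embryos did not overlap for any of these 5 genes.

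Genes known from inherited deafness were called as well. Myo7a, the myosin of hair bundles and also expressed in other inner ear cells, read 14.3, 17.8 and 18.8 CPM in WT and 34.5, 29.1 and 43.7 CPM in null (1.08 ± 0.17, edgeR adjusted p = 0.0257). Clrn1, a membrane protein of hair cells, read 9.85, 9.23 and 9.31 CPM in WT and 25.2, 20.6 and 19.4 CPM in null (1.20 ± 0.14, edgeR adjusted p = 0.00662), and Smpx, a small protein of muscle and inner ear, rose by 1.42 ± 0.23 (edgeR adjusted p = 0.0249). Myo7a was the only called gene of the 5 hair cell markers. Cytoskeletal genes that fell included Pls1, an actin-bundling protein of stereocilia, at -0.55 ± 0.09, the epithelial motor Myo5b at -0.91 ± 0.07 and the apical constriction protein Shroom3 at -0.54 ± 0.10. Serpinb5, an epithelial serpin, read 16.6, 15.3 and 9.72 CPM in WT and 0.33, 1.38 and 0.83 CPM in null (-4.00 ± 0.46), and Stmn2, a microtubule regulator of neurons, read 8.12 to 9.19 CPM in WT and 0.66 to 1.38 CPM in null (-2.96 ± 0.29), beside the neuronal gene Tubb3 at 7.51 to 9.26 CPM in WT and 7.43 to 9.96 CPM in null and Nefm at 1.73 to 6.58 and 0.99 to 16.6 CPM. In the fits that left out 1 embryo, Calb1, Anxa5, Myo5b and Stmn2 held in all 6, Clrn1 and Serpinb5 in 5, S100b and Pcp4 in 3, Myo7a and Smpx in 2, and S100a13, Pls1 and Shroom3 in 1.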
